A study of Mus musculus with 12 samples.

Results

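The blood vessels of the mouse hippocampus were followed through 35 transcripts, 25 made mainly by endothelial cells and 10 made mainly by mural cells. The genes were chosen by symbol from known marker genes, and all 35 were found among the 17986 genes listed in any of the 4 deposited count tables. The tables hold 12 RNA-seq libraries of mouse hippocampus, strain C57BL6/J, with ribosomal RNA removed. On day 6, whole homogenate was sequenced in 3 libraries of arm C and 3 of arm L. A synapse fraction (SYN) was sequenced on days 1, 6 and 20, with a single library for either arm each time. The column headers name C control and L training or learned on day 6, and mark the day 1 and day 20 columns with the letters C and T, T being read here as L. No other treatment, genotype or age is given, and neither is the way the synapse fraction was made. The labels do not say whether libraries came from separate mice, so the p-values below measure the spread between these libraries only.

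Endothelial cells line every vessel, and in the brain they form the blood-brain barrier: tight junctions seal the gaps between them, and transporters decide what crosses. Mural cells wrap around them. Pericytes sit on capillaries inside a shared basement membrane, and smooth muscle cells ring the arterioles and set their width. The endothelial members comprise receptors (Flt1 and Kdr for VEGF, Tek and Tie1 of the angiopoietin system, Eng for TGF-beta ligands), adhesion and junction proteins (Pecam1, Cdh5, Cldn5, Esam), transporters (Slc2a1 for glucose, Slco1a4 and Slco1c1 for organic anions and thyroid hormone, Abcb1a for drug efflux, Mfsd2a for lipids), the transcription factors Sox17 and Sox18, and secreted or surface proteins such as Vwf, Thbd, Pltp and Cd34. The mural members comprise the pericyte receptor Pdgfrb, the signalling regulator Rgs5, the potassium channel subunits Abcc9 and Kcnj8, Notch3, Anpep, Vtn, and the contractile genes Acta2, Myh11 and Tagln.

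Of the 35 transcripts, 33 were listed in every table. Myh11 and Tagln were absent from the day 6 synapse table, which lists no gene at 0 in both of its libraries. Total counts per library ran from 9100192 to 15950350, so 3 counts, taken as the detection floor, stood for 0.188 to 0.330 CPM, a count scaled to the library total. The 2 day 6 synapse libraries stood apart from the other synapse libraries: 125 genes had 0 counts in one and at least 50 in the other. Both day 6 synapse libraries enter the fits below that join several days, and results of such fits that moved without them are given both ways.

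Per length, the transcripts spanned a wide range in the 6 homogenates. Rgs5, an inhibitor of G-protein signalling in pericytes, was the most abundant at 38.3 ± 2.68 RPKM (SD, n = 6; RPKM are reads per kilobase of exon, scaled to the library total). Vtn, which encodes the matrix protein vitronectin and in brain marks pericytes, followed at 22.1 ± 7.73 RPKM. Slco1c1 (19.6 ± 2.23), Itm2a (19.1 ± 3.59) and Slc2a1 (18.1 ± 2.88) came next, and these 4 neighbours lay within their spread. The endothelial junction gene Cldn5 stood at 7.39 ± 1.85 RPKM and Pecam1 at 2.60 ± 0.289 RPKM. The lowest were Kcnj8, Sox17 and Esam, between 0.562 and 0.936 RPKM, where few counts were available for any comparison.

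The promoters of 4 members that the results below turn on are shown from RefSeq (GRCm38.p6), each from 250 bases before to 50 bases after the annotated start. Flt1 and Tie1 are endothelial receptors, and Rgs5 and Vtn are the mural transcripts that differed from the homogenate in opposite directions. They lie at chr5:147725962-147726261 (Flt1, minus strand), chr4:118489800-118490099 (Tie1, minus strand), chr1:169655251-169655550 (Rgs5, plus strand) and chr11:78498870-78499169 (Vtn, plus strand). Capitals mark the motif AGGAAG, which ETS factors bind, and TATAAA, the sequence of the TATA box, on either strand. In Vtn the TATAAA matches on the 2 strands overlap and begin at -137 and -135 from the start, that of Flt1 at -31. Whether any match works as such an element was not tested.
Flt1: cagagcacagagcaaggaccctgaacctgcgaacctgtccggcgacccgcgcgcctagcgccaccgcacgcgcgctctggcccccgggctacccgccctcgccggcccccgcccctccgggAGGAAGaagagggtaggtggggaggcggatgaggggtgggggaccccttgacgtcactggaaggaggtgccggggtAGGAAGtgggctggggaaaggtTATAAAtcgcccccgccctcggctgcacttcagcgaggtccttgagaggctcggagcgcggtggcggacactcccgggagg
Tie1: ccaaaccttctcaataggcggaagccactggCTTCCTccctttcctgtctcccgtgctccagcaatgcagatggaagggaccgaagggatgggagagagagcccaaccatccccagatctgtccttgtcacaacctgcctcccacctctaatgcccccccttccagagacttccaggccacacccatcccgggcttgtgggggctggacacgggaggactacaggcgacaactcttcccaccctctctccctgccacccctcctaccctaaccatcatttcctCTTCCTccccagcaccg
Rgs5: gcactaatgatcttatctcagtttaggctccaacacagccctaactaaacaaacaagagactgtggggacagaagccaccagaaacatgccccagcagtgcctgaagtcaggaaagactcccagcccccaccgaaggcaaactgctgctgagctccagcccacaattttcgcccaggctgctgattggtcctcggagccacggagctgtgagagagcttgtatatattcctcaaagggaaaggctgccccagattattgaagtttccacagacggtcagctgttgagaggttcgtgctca
Vtn: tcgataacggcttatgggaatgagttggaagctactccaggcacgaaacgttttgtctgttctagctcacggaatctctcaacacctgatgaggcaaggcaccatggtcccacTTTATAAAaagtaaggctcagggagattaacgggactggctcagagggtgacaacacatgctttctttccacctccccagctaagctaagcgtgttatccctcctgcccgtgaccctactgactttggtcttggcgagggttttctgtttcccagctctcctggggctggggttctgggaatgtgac
Flt1 held AGGAAG at 2 places and 1 TATAAA, Tie1 held CTTCCT, its other strand, at 2 places, and Rgs5 held neither. Promoters were found for 16 endothelial and 7 mural members. AGGAAG occurred in 10 of the 16 and in 0 of the 7, against 38.4% of the 27025 genes with a promoter of this length, and TATAAA in 4 of the 16 and 1 of the 7, against 15.7%.

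**Figure D1:**
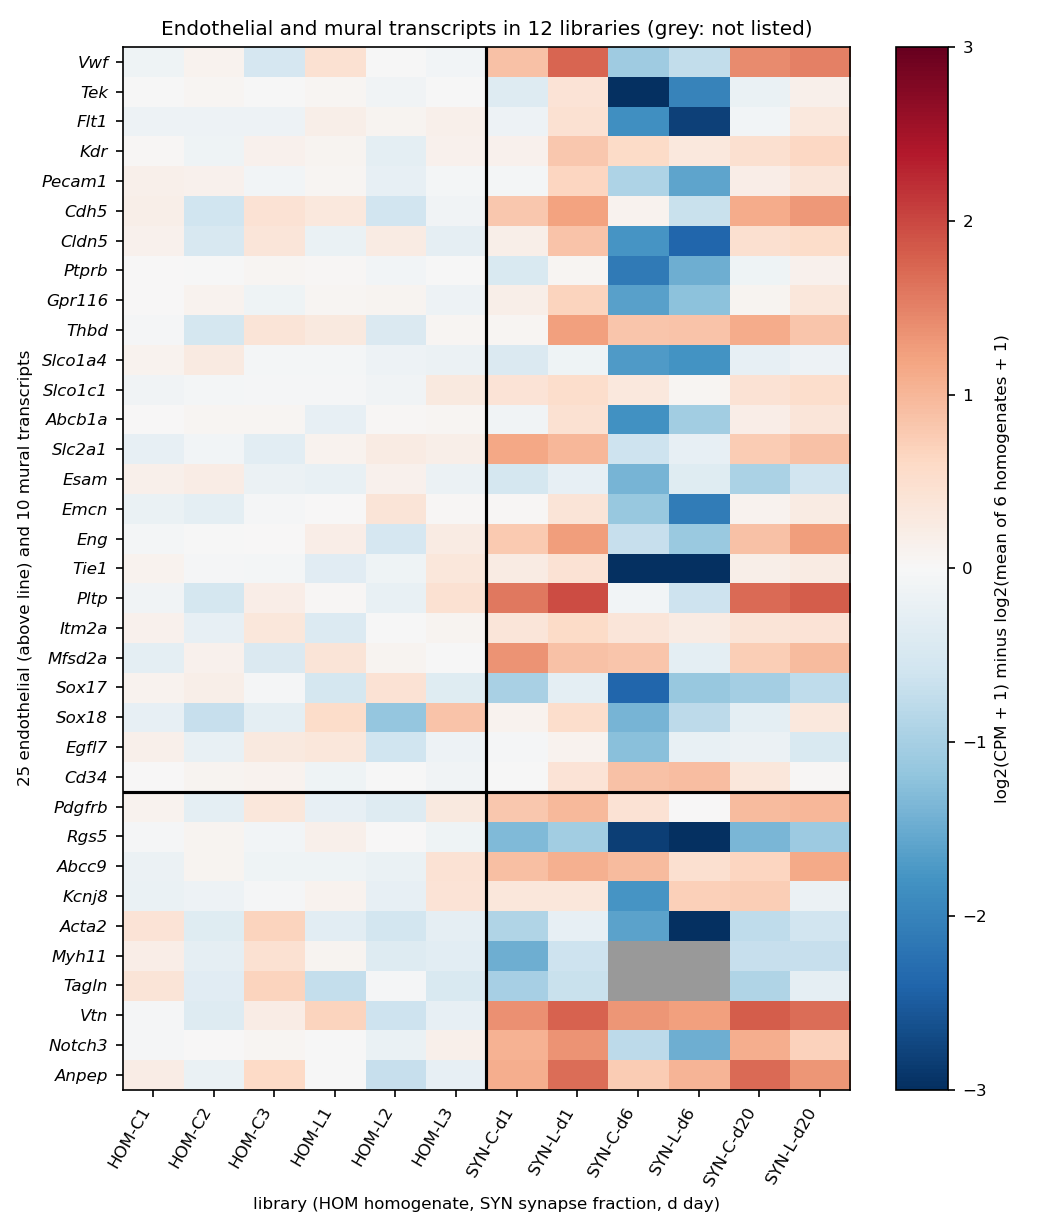
Level of each transcript (rows) in each library (columns) as log2(CPM + 1) minus log2(mean of the 6 homogenates + 1), with red above and blue below that mean, colours capped at 3 and grey where a gene was not listed. The homogenates are pale, the day 1 and day 20 synapse libraries resemble each other, and the day 6 synapse pair is blue for endothelial transcripts such as Flt1, Tek and Tie1 and for Rgs5.

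The first comparison, L against C in the day 6 homogenates, is the only one with replicates in both arms. No member passed the threshold (edgeR quasi-likelihood test, adjusted p under 0.05), and neither did any other of the 13647 genes (0% called). The lowest adjusted p was 0.467. At an unadjusted p under 0.05 there were 1217 genes, 5 of them members. DESeq2 called 13 genes and limma-voom 0, with no member among either. Summed over the 25 endothelial transcripts, the level was 873, 865 and 884 CPM in C and 915, 861 and 933 CPM in L; over the 10 mural transcripts it was 338, 313 and 363 CPM in C and 364, 291 and 314 CPM in L. The median log2 difference was -0.02 for the endothelial and -0.09 for the mural members, beside 0.00 for all genes.

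Single transcripts differed more than the sums. Flt1, a VEGF receptor that also acts as a decoy for its ligand, measured 101 CPM in each C library and 126, 118 and 124 CPM in L. All 3 L libraries lay above all 3 C libraries, and the log2 difference was 0.29 ± 0.07 (the error is the SE), at an edgeR adjusted p of 0.467. Slc2a1, the glucose transporter of the barrier, measured 53.8, 60.2 and 50.8 CPM in C and 68.8, 75.6 and 71.9 CPM in L. Its groups did not overlap either, and the log2 difference was 0.40 ± 0.10 (edgeR adjusted p = 0.467). Emcn, a surface mucin of capillaries and veins, measured 7.14, 6.65 and 8.15 CPM in C and 8.45, 11.3 and 8.68 CPM in L. Slco1a4, an organic anion transporter of the barrier with close paralogs, went the other way, at 97.5, 108 and 87.0 CPM in C and 86.8, 80.7 and 79.9 CPM in L. Its log2 difference was -0.24 ± 0.11 (edgeR adjusted p = 0.555).

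Counted over the members, 5 of 35 had arms that did not overlap: Flt1, Slc2a1 and Emcn with L higher, and Slco1a4 and Cd34 with L lower. Over all genes tested, 15.8% had such arms, 7.69% with L higher and 8.08% with L lower. The share among the members was near that background. None of the 10 mural transcripts was among them.

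The largest difference of any member was that of the low endothelial transcript Sox18, 1.14 ± 0.77 on the log2 scale (edgeR adjusted p = 0.676). Some mural genes also differed by more than the transcripts above, but their arms overlapped. Acta2, the smooth muscle actin, whose counts are uncertain because other actins are nearly identical, measured 26.0, 14.6 and 31.0 CPM in C and 15.3, 12.7 and 15.8 CPM in L, a log2 value of -0.70 ± 0.23 for L minus C, at an edgeR adjusted p of 0.504. Tagln, which binds actin in smooth muscle, measured 9.99, 5.68 and 12.4 CPM in C and 4.15, 7.16 and 5.16 CPM in L (log2 difference -0.76 ± 0.31, edgeR adjusted p = 0.522). Anpep, a peptidase of pericytes, measured 6.46, 4.52 and 8.71 CPM in C and 5.30, 2.95 and 4.40 CPM in L (log2 difference -0.63 ± 0.31, edgeR adjusted p = 0.582). For all 3 of these mural genes, C replicates 1 and 3 were high and C replicate 2 lay within the range of L. The summed level of 12 meningeal and fibroblast markers was 895, 224 and 1326 CPM in C and 318, 222 and 1145 CPM in L. The part of these markers in the result was not tested. The pericyte transcripts Pdgfrb and Rgs5 had log2 differences of -0.16 ± 0.19 and 0.04 ± 0.10.

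**Figure D2:**
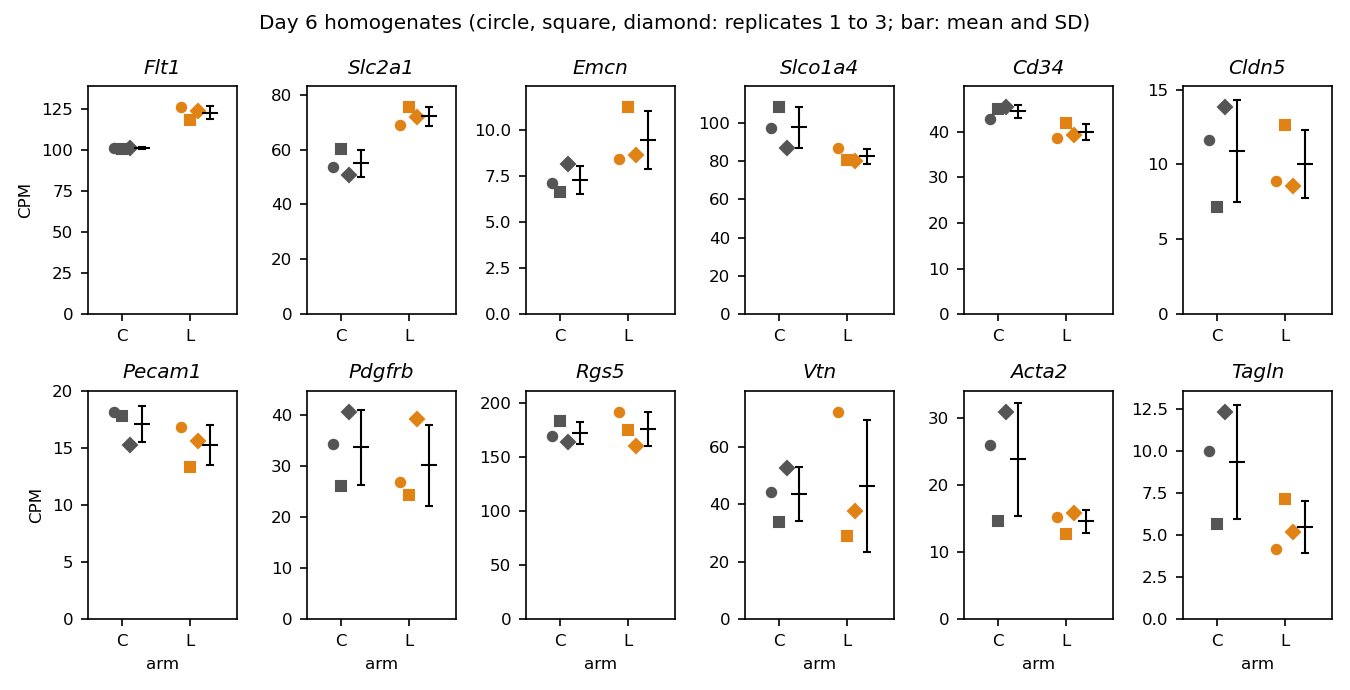
CPM of 12 members in the day 6 homogenates by arm, with replicates 1 to 3 as circle, square and diamond and the mean and SD as bars. Flt1, Slc2a1 and Emcn lie higher in every L library and Slco1a4 and Cd34 lower, while Acta2 and Tagln overlap between the arms.

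The second comparison set each day's synapse pair against the 6 homogenates, all of which are from day 6, so for days 1 and 20 fraction and day cannot be told apart. In such bulk samples fewer cells of a type and less RNA per cell cannot be told apart either. On day 1, 13 of 25 endothelial members were higher in the synapse fraction and 0 lower (edgeR adjusted p under 0.05), where 20.7% of the 13766 genes were called higher and 16.0% lower, 36.7% in all. Of the 8 mural members tested, 5 were higher and 1 lower. Myh11 and Tagln were left out of this fit because they were not listed for the day 6 synapse pair. On day 20 the counts were again 13 and 0 for the endothelial and 5 and 1 for the mural members, against 19.9% called higher and 15.5% lower, 35.4% in all. Without the day 6 synapse pair in the fit, the endothelial higher calls were 17 on day 1 and 16 on day 20, and the mural lower calls 2 and 1. Myh11 and Tagln can enter that fit, so its mural calls are not over the same genes. With the day 6 pair, the higher calls of the 2 days shared 17 of 18 genes. Cldn5 passed on day 1 alone and Abcb1a on day 20 alone. The median log2 difference of the endothelial members was 0.63 on day 1 and 0.48 on day 20, and that of the mural members 1.19 and 1.16, beside -0.03 for all genes on both days.

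Pltp, a phospholipid transfer protein abundant at the barrier, showed the largest endothelial difference. It measured 115 (C) and 149.7 (L) CPM on day 1 and 124 and 134 CPM on day 20, against 25.6 to 51.9 CPM in the homogenates. Its log2 difference was 2.03 ± 0.19 on day 1 (edgeR adjusted p = 2.43e-06) and 1.99 ± 0.19 on day 20. Vwf, the clotting factor stored in endothelial granules, measured 50.3 and 93.6 CPM on day 1 and 74.3 and 79.0 CPM on day 20, against 18.8 to 37.3 CPM. Slc2a1 measured 144 and 129 CPM on day 1, all above its homogenate range of 50.8 to 75.6 CPM, and rose by 1.33 ± 0.12 on the log2 scale. Eng, a co-receptor for TGF-beta ligands, rose by 1.30 ± 0.22 and 1.34 ± 0.22 on days 1 and 20, and Cdh5, the cadherin of endothelial junctions, by 1.27 ± 0.27 and 1.47 ± 0.27. Slco1c1, which carries thyroid hormone and is also made by astrocytes, rose by 0.69 ± 0.12 and 0.70 ± 0.12, and the adhesion receptor Gpr116 by 0.63 ± 0.13 and 0.41 ± 0.13.

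Other endothelial transcripts did not pass on either day. Ptprb, a phosphatase that acts on Tek, measured 81.1 and 116 CPM on day 1 and 101 and 121 CPM on day 20, against 104 to 115 CPM in the homogenates. Flt1, Tek, Pecam1, Tie1, Emcn, Egfl7, Slco1a4 and the low transcripts Esam, Sox17 and Sox18 did not pass either. Flt1 and Slco1a4 had log2 differences of 0.39 ± 0.22 and -0.06 ± 0.13 on day 1.

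Among the mural transcripts, those of pericyte matrix and receptors were higher and Rgs5 was lower. Vtn measured 117 and 156 CPM on day 1 and 159.9 and 145 CPM on day 20, against 29.0 to 72.2 CPM in the homogenates. It rose by 1.81 ± 0.24 and 1.97 ± 0.24 on the log2 scale (edgeR adjusted p = 0.000104 and 5.61e-05). The highest homogenate value was that of L replicate 1, a library that also held 2260.5 CPM of 5 liver transcripts, whose part in the Vtn value was not tested. Pdgfrb, the PDGF receptor that holds pericytes on capillaries, measured 56.6 and 63.7 CPM on day 1 and 62.2 and 64.7 CPM on day 20, against 24.3 to 40.7 CPM, and rose by 1.13 ± 0.18 and 1.20 ± 0.18. Anpep rose by 1.83 ± 0.29 and 1.896 ± 0.29, Abcc9 by 1.25 ± 0.21 and 1.17 ± 0.21, and Notch3, the Notch receptor of mural cells, by 1.48 ± 0.19 and 1.15 ± 0.20. Rgs5 measured 68.9 and 84.4 CPM on day 1 and 67.0 and 81.0 CPM on day 20, against 160.3 to 192 CPM in the homogenates. No library of the fraction reached the lowest homogenate, and the difference was -0.98 ± 0.14 on day 1 (edgeR adjusted p = 0.000132) and -1.04 ± 0.14 on day 20. The contractile gene Acta2, at 9.75 to 16.03 CPM on these days against 12.7 to 31.0 CPM, did not pass. The contractile genes Myh11 and Tagln were not tested in this fit. Myh11 measured 5.48 (C) and 10.8 (L) CPM on day 1 and 10.17 and 10.19 CPM on day 20, against 12.8 to 23.7 CPM in the homogenates. Tagln measured 3.23 and 4.31 CPM on day 1 and 3.51 and 6.04 CPM on day 20, against 4.15 to 12.4 CPM.

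**Figure D3:**
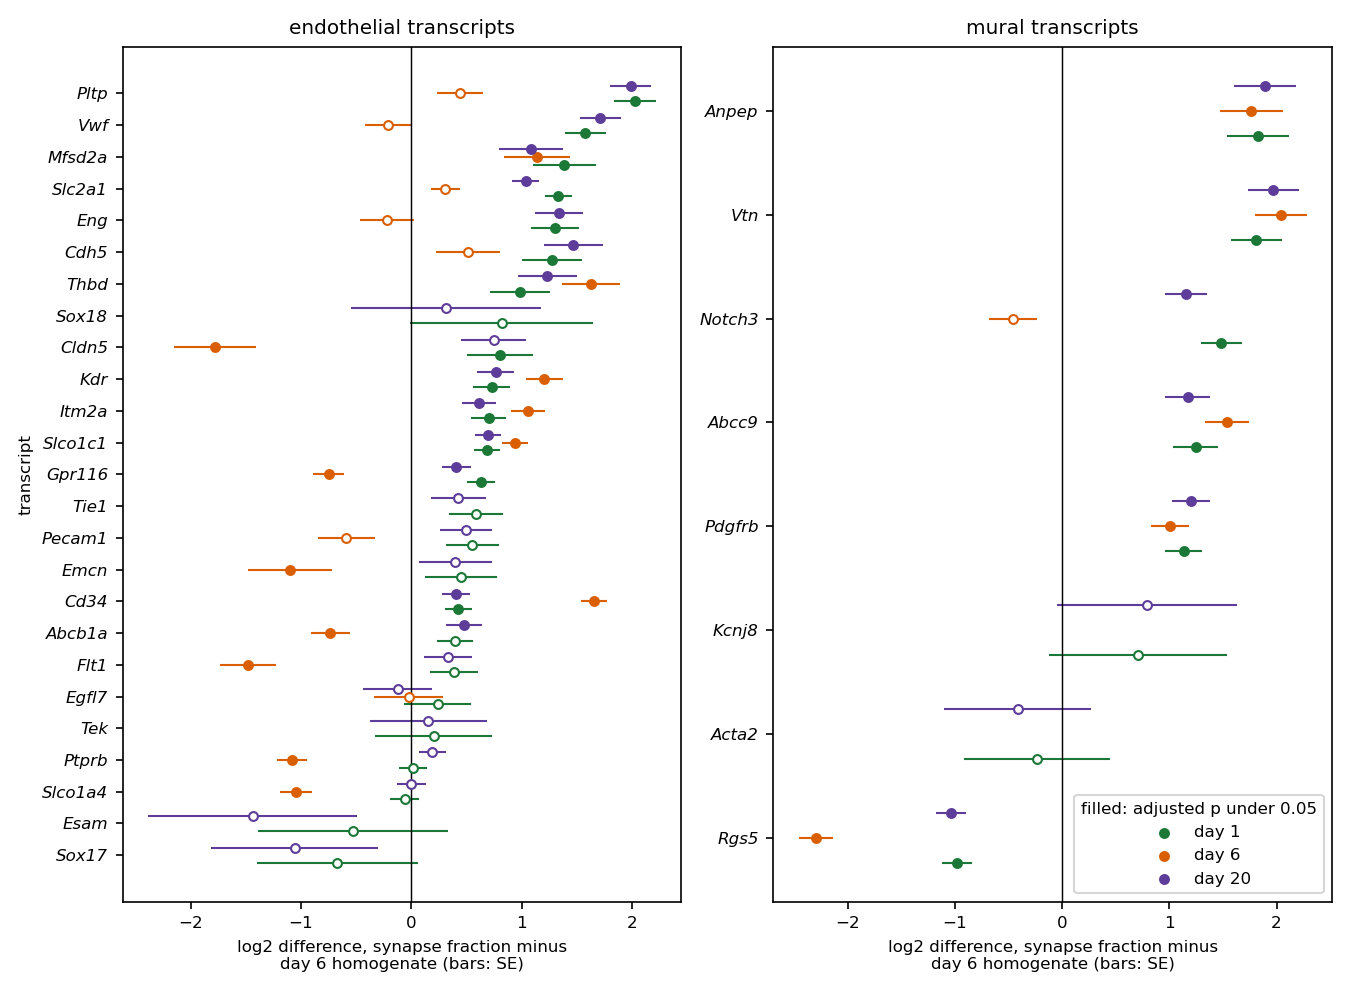
Fitted log2 difference of each member between the synapse pair of a day and the 6 homogenates, with its SE, filled where the edgeR adjusted p is under 0.05; day 6 points are left out for 7 transcripts with 0 or 1 counts in a day 6 synapse library, and Myh11 and Tagln were not tested. Days 1 and 20 lie close together, while on day 6 receptors such as Flt1, Ptprb and Gpr116 lie left of 0 and Cd34, Kdr and Thbd lie right of it.

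Day 6 of the synapse fraction looked different. Against the homogenates of the same day, 6 of 25 endothelial members were higher and 10 lower, and 4 of 8 mural members higher and 2 lower, where 28.0% of all genes were called higher and 31.3% lower, 59.3% in all. The median of the endothelial members was -0.59 and that of the mural members 0.69, beside -0.13 for all genes. Leaving out the 6 members with a library at 0 gave -0.21 and 1.27, and setting those zeros to 3 counts gave -0.59 and 0.75. The mural median turned to -0.03 when libraries were scaled by their totals alone, so its direction depends on the scaling, while the endothelial median was then -1.34. CPM are scaled by totals alone. Those of day 6 therefore stand lower against the other libraries than the fitted log2 differences, which use TMM scaling.

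Cd34, a sialomucin of endothelial and progenitor cells, was the clearest higher transcript on day 6, at 77.9 and 81.6 CPM against 38.5 to 45.5 CPM in the homogenates; the log2 difference of 1.66 ± 0.12 had an edgeR adjusted p of 3.07e-08. Thbd, the thrombomodulin that restrains clotting, measured 27.8 and 28.0 CPM against 10.2 to 20.2 CPM, and Kdr, the main signalling receptor for VEGF, 39.3 and 32.7 CPM against 21.4 to 28.7 CPM. Mfsd2a, Itm2a and Slco1c1 also passed, with log2 differences of 1.14 ± 0.30, 1.06 ± 0.15 and 0.94 ± 0.12. With scaling by totals alone these last 3 no longer passed.

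The transcripts that fell on day 6 included receptors and the tight junction gene Cldn5. Tie1 had 1 count in each library, 0.0655 and 0.0856 CPM, where the homogenates held 6.38 to 10.9 CPM. By library totals, its 2 counts stood for 0.903% of the homogenate level, with an exact 95% counting interval of 0.109% to 3.28%. Tek, the angiopoietin receptor that pairs with Tie1, had 0 counts in C and 4.20 CPM in L, against 18.4 to 20.98 CPM in the homogenates. Flt1 measured 30.7 and 15.2 CPM against 101 to 126 CPM, a difference of -1.48 ± 0.25, and Cldn5 2.36 and 1.20 CPM against 7.18 to 13.9 CPM, a difference of -1.78 ± 0.37. Ptprb, Slco1a4 and Gpr116 fell by 1.08 ± 0.14, 1.04 ± 0.15 and 0.75 ± 0.14 on the log2 scale, and Abcb1a, Emcn and Sox17 passed as lower as well. In none of Tie1, Tek, Flt1, Cldn5, Ptprb, Slco1a4 and Gpr116 did a day 6 synapse library reach the lowest homogenate.

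On the mural side, Vtn (113 and 107 CPM), Abcc9 (28.3 and 20.1 CPM), Anpep (9.76 and 11.9 CPM) and Pdgfrb (43.8 and 32.5 CPM) were higher on day 6 as well, by 2.04 ± 0.24, 1.54 ± 0.21, 1.76 ± 0.29 and 1.00 ± 0.18. Pdgfrb overlapped its homogenate range of 24.3 to 40.7 CPM and did not pass with scaling by totals alone. Rgs5 was lowest on this day, at 23.9 and 18.2 CPM, a difference of -2.30 ± 0.16 (edgeR adjusted p = 2.34e-08). Acta2, with 5.64 CPM in C and 0 counts in L, passed as lower with an edgeR adjusted p of 0.0418, and the call was lost with limma-voom and without homogenate C replicate 1, C replicate 3 or L replicate 3.

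Set against days 1 and 20 of the same fraction, day 6 had 15 of 25 endothelial members lower and 1 higher, and 2 of 8 mural members lower and 0 higher, where 22.6% of the genes were called higher and 22.5% lower, 45.1% in all (edgeR, adjusted p under 0.05). Summed CPM of the 25 endothelial transcripts was 585 (C) and 557 (L) on day 6, 1094 and 1432 on day 1, and 1177 and 1304 on day 20. These sums are scaled by library totals, by which day 6 stands lower than in the fits that give the medians. The endothelial median was -1.17 and the mural median -0.27, beside -0.03 for all genes. The higher one was Cd34 (1.24 ± 0.13). By library totals, Tie1 stood at 0.722% of its level on days 1 and 20, with an exact 95% counting interval of 0.0871% to 2.62%. Vwf fell by 1.86 ± 0.23, Flt1 by 1.84 ± 0.27, Pltp by 1.57 ± 0.24, Gpr116 by 1.27 ± 0.15 and Ptprb by 1.19 ± 0.14. The 2 lower mural members were Notch3, at 7.67 and 4.37 CPM against 23.1 to 36.8 CPM on the other days (-1.77 ± 0.24), and Rgs5 (-1.29 ± 0.16). Kdr, Thbd, Itm2a, Slco1c1, Mfsd2a, Vtn, Pdgfrb, Abcc9 and Anpep did not pass between the days. Between day 20 and day 1, edgeR called none of the 33 members and none of the 13766 genes (0% called). At an unadjusted edgeR p under 0.05 there were 34 genes, 0 of them members, and DESeq2 and limma-voom also called 0. Each day is 1 library per arm, and the spread of the day 6 pair enters the error of this fit. The absence of calls thus does not show that the days are alike.

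Other genes with vascular roles were read from lists that hold no member. Over all genes, 20.7% were called higher and 16.0% lower on day 1, and 28.0% and 31.3% on day 6. Of 15 genes of the vascular basement membrane tested, 15 were higher on days 1 and 20 and 13 on day 6 in the synapse fraction against the homogenates (edgeR adjusted p under 0.05), with medians of 1.40, 1.55 and 1.82; Lamb2, a laminin chain, rose by 1.98 ± 0.15 on day 1. Of 26 further endothelial genes, 4 were higher and 2 lower on day 1, and 4 higher and 12 lower on day 6, where the median was -1.16; their higher calls were below the share over all genes on both days. Among them the endothelial adhesion receptor Eltd1 fell by 2.16 ± 0.19 on day 6 and the amino acid transporter Slc7a5 rose by 1.08 ± 0.10. Of 12 further mural genes, 3 were higher and 1 lower on day 1, and 2 higher and 5 lower on day 6; the pericyte proteoglycan Cspg4, also made by oligodendrocyte precursors, rose by 1.81 ± 0.19 and 2.40 ± 0.19. Of 27 genes of VEGF, angiopoietin and Notch signalling, 10 were higher and 0 lower on day 1, and 16 higher and 3 lower on day 6, including the VEGF co-receptors Nrp1 (1.97 ± 0.10) and Nrp2 (2.31 ± 0.09), both of which neurons also make. Of 20 further transporters of the barrier, 13 were higher and 2 lower on day 1, and 14 higher and 1 lower on day 6. Of 13 junction genes, 5 were higher and 0 lower on day 1, and 8 higher and 1 lower on day 6, and of 17 genes of Wnt and Norrin signalling, 6 and 10 were higher and 0 lower on these days. Of 15 genes of vascular tone, 6 were higher and 2 lower on day 1, and 8 higher and 3 lower on day 6. Of 6 leukocyte adhesion genes 5 were higher on each day. Over the 12 libraries, the basement membrane list summed to 2033 to 6861 CPM and the further transporters to 2023 to 5320 CPM. The 25 endothelial members summed to 557 to 1432 CPM. Which cells made the transcripts of these lists was not tested.

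Markers of glia also differed between the fractions, on day 6 in the opposite direction to the endothelial median of -0.59. In the synapse fraction all 12 astrocyte markers were called higher than in the homogenates on each day, with medians of 0.93, 1.45 and 0.94 on days 1, 6 and 20, and summed levels of 17064.9 to 22942 CPM against 9482 to 11065 CPM. Of 11 microglia markers 10, 11 and 10 were called higher, with medians of 1.80, 2.51 and 1.77. Of 12 oligodendrocyte markers 11, 9 and 9 were called higher, and of 12 neuron markers 5 were higher on each day and 3, 6 and 4 lower. Their part in the vascular differences was not tested.

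Base composition also went with the difference between the fractions on days 1 and 20, but not on day 6. Over 13520 genes, Spearman's rho between GC content of the transcript and the log2 difference was 0.51 on day 1, 0.47 on day 20 and -0.01 on day 6, and over the 33 members 0.51, 0.36 and 0.00 (descriptions, since genes of the same libraries are not independent). Among members with over 0 to 50% GC the median difference on day 1 was 0.43, beside -0.31 for all genes of that range; from 50 to 55% it was 0.98 beside 0.08, and above 55% 1.30 beside 0.44. Less the median of all genes of like GC content, the endothelial medians on days 1, 6 and 20 were 0.72, -0.53 and 0.65, and the mural medians 0.94, 0.78 and 0.87. The part of GC content in the differences of single members was not tested.

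**Figure D4:**
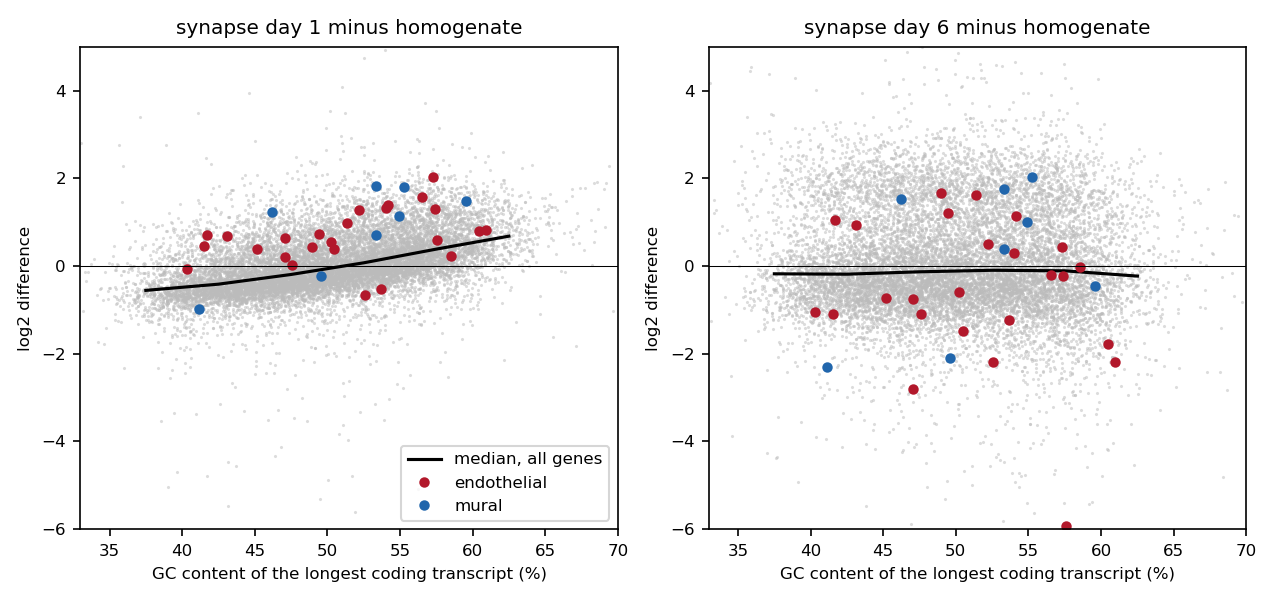
Log2 difference between synapse fraction and homogenate against transcript GC content (%), for day 1 (left) and day 6 (right), with all genes in grey, their median per 5% bin as a line, and endothelial and mural members in red and blue. On day 1 genes of higher GC content lie higher and most members lie above the line, and on day 6 the line is flat and the members spread to both sides.

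The third comparison, L against C in the synapse fraction, has 1 library per arm and day. With the 3 days as a block, edgeR called none of 32 members tested and none of 13071 genes (0% called; 226 genes at an unadjusted p under 0.05, 3 of them members; DESeq2 and limma-voom 0). The endothelial median was 0.09, but 0.36 without the day 6 pair and -0.08 without day 1, with 1 and 7 genes called. The mural median was 0.01. Departures of single days from a shared arm difference are the error of this fit. The absence of calls thus does not show that the arms are alike. The pairs are therefore described one by one, with no test, as log2 ratios with exact 95% Clopper-Pearson intervals that cover counting error only, for genes whose pair averaged 10 CPM or more.

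On day 1, L was higher than C for 19 of the 21 endothelial members above that level, and 6 were past 1.5-fold, all higher in L. Over all 9316 genes, 0.708% were past 1.5-fold higher and 0.451% lower, 1.16% in all, and the median ratio was -0.01, beside 0.45 for the endothelial members. Thbd stood at 15.8 CPM in C and 37.1 CPM in L, a log2 ratio of 1.17 (0.94 to 1.43). Vwf stood at 50.3 and 93.6 CPM, a ratio of 0.85 (0.71 to 0.99), Tek at 15.0 and 27.1 CPM, a ratio of 0.80 (0.54 to 1.07), and Pecam1, the platelet and endothelial adhesion molecule, at 15.4 and 25.7 CPM, a ratio of 0.69 (0.43 to 0.95). Cldn5 and Kdr were also past 1.5-fold, at 0.67 and 0.65. The lipid transporter Mfsd2a, at 37.0 and 26.8 CPM, and Slc2a1, at 144 and 129 CPM, were lower in L, with ratios of -0.51 (-0.72 to -0.31) and -0.21 (-0.30 to -0.11). The 7 mural members above the level were all higher in L, with a median of 0.26; Acta2 was past 1.5-fold at 9.75 and 16.03 CPM (0.66; 0.34 to 1.00), and Anpep stood at 0.57 (0.28 to 0.87). Other lists went either way in this pair. L was higher for 14 of 15 basement membrane genes, 10 of 10 microglia, 8 of 8 choroid plexus and 9 of 11 meningeal markers, and for 7 of 10 further endothelial genes. It was higher for 4 of 16 genes of VEGF, angiopoietin and Notch signalling, 3 of 10 junction genes, 3 of 12 astrocyte, 1 of 12 neuron and 0 of 12 oligodendrocyte markers. The ratio was above 0 for 46.5% of all genes. The part of the cell type markers in the vascular ratios was not tested.

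On day 20, L was higher for 17 of 19 endothelial members, but none was past 1.5-fold in either direction (0.215% of all genes higher, 0.645% lower, 0.860% in all), and the median was 0.16. The ratio was above 0 for 51.1% of all genes. Flt1 had the largest ratio, 105 CPM in C and 141 CPM in L (0.42; 0.31 to 0.53), followed by Eng (0.40; 0.17 to 0.64) and Tek (0.37; 0.09 to 0.65). Cd34, at 54.0 and 43.3 CPM, was lower in L (-0.31; -0.49 to -0.13). Of 8 mural members 5 were higher in L, with a median of 0.04. Abcc9, the sulfonylurea receptor subunit of pericyte potassium channels, stood at 22.9 and 32.6 CPM (0.52; 0.28 to 0.76), and Anpep at 19.9 and 14.9 CPM (-0.41; -0.71 to -0.11). L was higher for 0 of 8 choroid plexus and 1 of 11 meningeal markers, 5 of 15 basement membrane genes and 3 of 18 further barrier transporters. It was higher for 5 of 10 microglia, 7 of 12 astrocyte, 7 of 12 neuron and 4 of 12 oligodendrocyte markers, and for 5 of 11 further endothelial genes. The part of the cell type markers in these ratios was not tested.

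On day 6 the arms differed more for genes in general, with 11.3% past 1.5-fold higher and 8.97% lower, 20.3% in all. Of 15 endothelial members above 10 CPM, 2 were past it higher and 4 lower, and the median was -0.19. Mfsd2a stood at 25.7 CPM in C and 11.2 CPM in L (-1.27; -1.57 to -0.99), Flt1 at 30.7 and 15.2 CPM (-1.09; -1.35 to -0.84), and Cdh5 at 18.1 and 10.2 CPM (-0.90; -1.23 to -0.59). Pltp was the fourth lower one (-0.63; -0.84 to -0.42). Abcb1a, the P-glycoprotein efflux pump with a close paralog, stood at 12.3 and 21.7 CPM (0.73; 0.46 to 1.02), and Ptprb at 24.6 and 39.6 CPM (0.60; 0.40 to 0.80). None of 5 mural members was past 1.5-fold. Their median was -0.47, with Abcc9 at -0.57 (-0.81 to -0.34) and Pdgfrb at -0.51 (-0.70 to -0.33). L was lower in this pair for 13 of 15 basement membrane genes, 11 of 12 astrocyte and 11 of 12 oligodendrocyte markers. It was lower for 7 of 8 choroid plexus and 6 of 12 neuron markers, and for 4 of 5 further mural genes. Of the further endothelial genes L was lower for 3 of 7, and of the junction genes for 4 of 10. The median ratio of these further endothelial genes was 0.32, with 3 past 1.5-fold higher in L and 1 lower. The ratio was above 0 for 47.9% of all genes. The part of these markers in the vascular ratios was not tested.

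Below that level, 6 of the 33 members listed had 0 counts in one day 6 synapse library. Over all 14552 genes listed there, 1006 were at 0 in the C library and 804 in the L library, none in both. Tek had 0 in C and 49 in L, at least 21.3-fold higher in L when 3 counts are taken as the floor of the C library, and Kcnj8, a pore subunit of the potassium channel of mural cells, 0 and 53, at least 23.1-fold higher. Acta2 had 86 in C and 0 in L, at least 21.9-fold lower in L. The homogenates held 18.4 to 20.98 CPM of Tek, 1.85 to 3.52 CPM of Kcnj8 and 12.7 to 31.0 CPM of Acta2, and no such gap. The transcription factors Sox17 and Sox18 and the adhesion molecule Esam had 0 in C and 16, 6 and 12 counts in L.

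**Figure D5:**
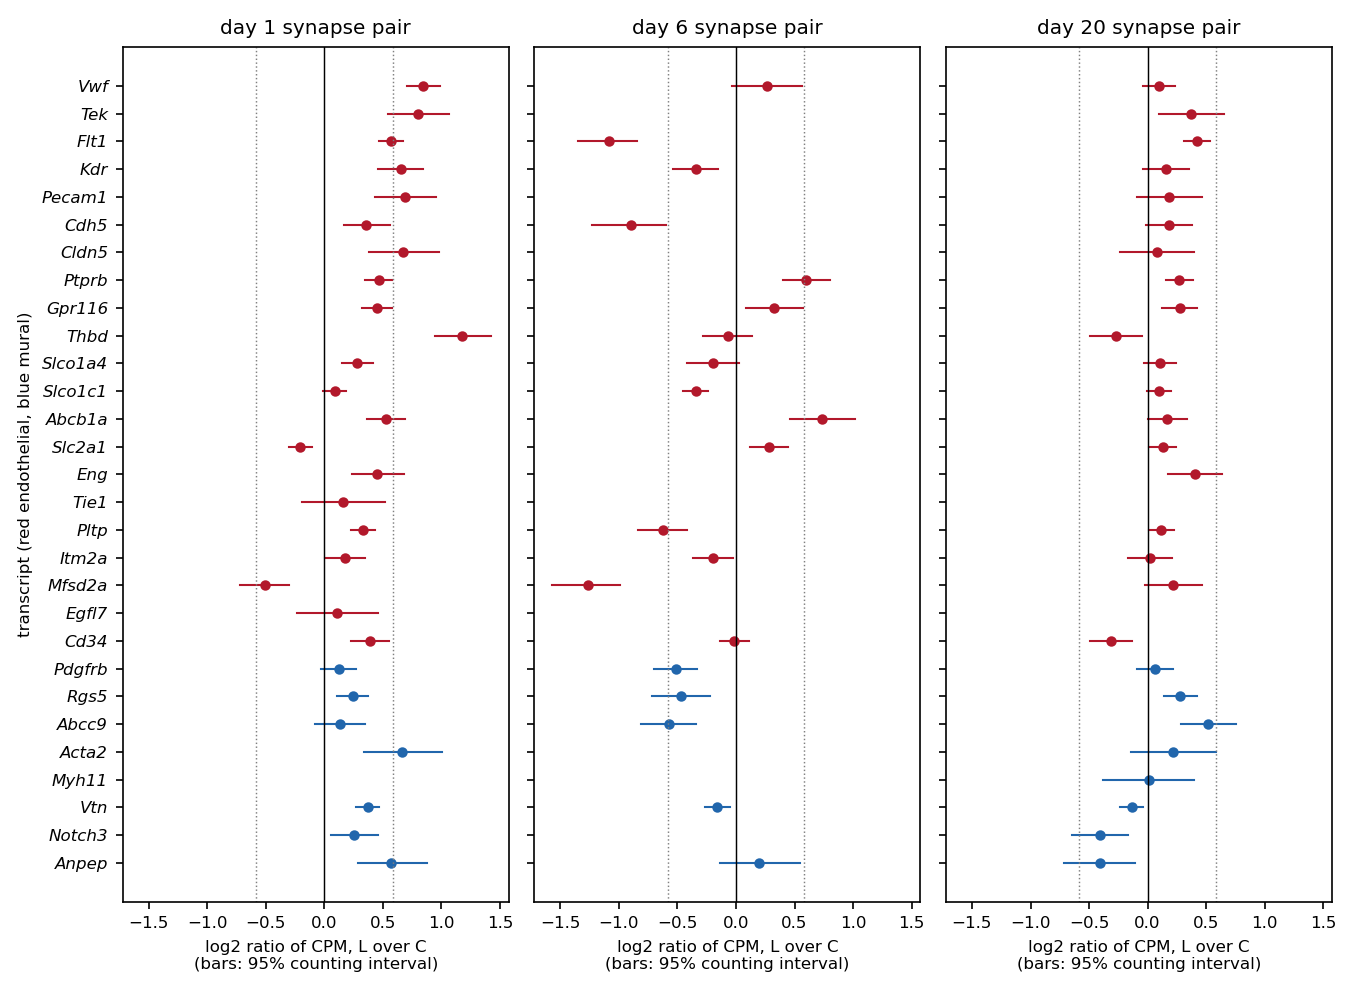
Log2 ratio of L over C in each day's synapse pair for members that average 10 CPM or more, endothelial in red and mural in blue, with exact 95% counting intervals and dotted lines at 1.5-fold. On day 1, 19 of 21 endothelial points lie right of 0; on day 20 the points lie nearer to 0; on day 6 they spread to both sides.

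The difference between the arm effects of the 2 fractions on day 6 was fitted on the assumption that the single synapse libraries vary like the homogenates, from which all of its error comes. The day 6 pair differed past 1.5-fold for 20.3% of genes, against 1.16% and 0.860% in the pairs of days 1 and 20, so the assumption may not hold and the p-values may be too small; the calls are given as those of this fit. Of 25 endothelial members 5 were called higher (Tek, Sox17, Esam, Ptprb and Abcb1a) and 3 lower (Flt1, Mfsd2a and Emcn), and of 8 mural members Kcnj8 higher and Acta2 lower, where edgeR called 10.7% of 13744 genes higher and 7.65% lower, 18.4% in all. Flt1 was higher in L in the homogenates and lower in L in the synapse pair, an interaction of -1.42 ± 0.16 on the log2 scale (edgeR adjusted p = 0.00197). Mfsd2a had -1.69 ± 0.40 (edgeR adjusted p = 0.0214), Emcn -1.95 ± 0.47, Ptprb 0.59 ± 0.15 and Abcb1a 0.78 ± 0.23. Without homogenate C replicate 1 the endothelial higher calls fell to 2 and those over all genes from 2527 to 1372, with Esam, Ptprb, Abcb1a and Emcn losing theirs. Without C replicate 3, Ptprb and Abcb1a lost theirs, leaving 3. Abcb1a also lost its call without C replicate 2 and without L replicate 3.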

How the data were processed

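The authors' deposited tables give raw counts per gene for 12 libraries. Per the labels, ribosomal RNA was removed and strand-marking libraries were made; the submitters' processing notes name cutadapt 1.9.3, HISAT2 2.0.4, HTSeq 0.9.1, edgeR and mm10, and whether HTSeq used strand is not given in the sources used here, so reads of a member and of any antisense gene may mix. Members and gene lists alike were chosen with earlier results of these data known. CPM are counts over the library total; RPKM and GC content use GENCODE M21 (35 of 35 members matched by identifier), and promoters come from RefSeq. Tests were edgeR 4.0.16 quasi-likelihood fits (R 4.3.3; filterByExpr, TMM scaling, robust) over all genes, with Benjamini-Hochberg adjustment and a threshold of 0.05, each contrast separately. The homogenate arms were fitted over 6 libraries, and the fractions and days over all 12 in 4 sets with an additive arm term, so the spread of the synapse pairs about a shared arm effect counts as error. Pair ratios add a prior count of 2 to counts scaled by TMM. Members named are those with the smallest p in each direction (up to 6 per class and comparison), or the largest pair ratios, plus Cldn5, Pecam1, Flt1, Slco1a4, Pdgfrb, Rgs5, Acta2 and Vtn; where a comparison of the homogenates called none, the 4 endothelial and 3 mural members with the smallest p. Alternatives were scaling, filter, DESeq2 1.42.0, limma-voom 3.58.1, other designs, and leaving out libraries. Total counts of 9100192 to 15950350 bound the precision, and intervals cover counting error only, since reads carry no molecular identifiers. Scripts were tested on simulated counts with 200 changed genes.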

Additional observations from a re-analysis of the deposited data

Results flagged for a closer look

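In the edgeR fit of the interaction on day 6, with Benjamini-Hochberg adjustment over 13744 genes (18.4% called), 10 members were called. The synapse side is 1 library per arm, so these p-values rest on the assumption that it varies like the homogenates and do not by themselves show a difference between the fractions. The adjusted p-values were 0.000961 for Tek, 0.00197 for Flt1, 0.026 for Ptprb, 0.0464 for Abcb1a, 0.0219 for Esam, 0.0223 for Emcn, 0.0214 for Mfsd2a, 0.0142 for Sox17, 0.00447 for Kcnj8 and 0.00449 for Acta2. Without C replicate 1 of the homogenates, Esam, Ptprb, Abcb1a and Emcn lost their calls, and over the homogenates left out in turn 1372 to 2679 genes were called. Of the 10, Tek, Esam, Sox17, Kcnj8 and Acta2 had 0 counts in 1 of the 2 day 6 synapse libraries. The summed level of 12 astrocyte markers was 22942 CPM in the C and 21211 CPM in the L library of that pair, and the part of other cell types in these differences was not tested.

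In the synapse fraction, 6 members had L over C ratios of opposite sign on days 1 and 20, with both counting intervals clear of 0. The day 1 log2 ratio minus the day 20 log2 ratio was 1.44 for Thbd, 0.98 for Anpep, 0.70 for Cd34, 0.66 for Notch3, 0.50 for Vtn and -0.34 for Slc2a1. With 1 library per arm and day these differences were not tested. The share of all genes that met this rule was not counted, and the intervals cover counting error only. The count of 6 is thus no result about the members as a set. Thbd stood at 15.8 CPM in C and 37.1 CPM in L on day 1, and at 33.8 CPM in C and 27.8 CPM in L on day 20, so that its day 1 C library was the low one of the 4.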

How the results depend on the processing

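Of 763 recomputed values of single genes, none turned its direction and 16 lost their call; of 635 recomputed counts and medians, 54 moved by more than the limit used. Scaling by library totals alone moved most medians: endothelial to 0.43, -1.34 and 0.28 and mural to 0.98, -0.033 and 0.96 on days 1, 6 and 20 against the homogenates, with 3 endothelial higher calls on day 6, and to -1.70 and -0.78 for day 6 against days 1 and 20, with 4 mural lower calls. In the pairs it gave endothelial medians of 0.50 (day 1) and -0.11 (day 6), a mural median of -0.38 (day 6) and 2 mural members past 1.5-fold on day 1. Subtracting the median of all genes of like GC content, an alternative chosen after seeing the data, gave mural medians of 0.94 (day 1), 0.87 (day 20) and -0.026 (day 6 against days 1 and 20), and an endothelial median of 0.65 on day 20. Leaving out the day 6 synapse pair, also chosen after seeing the data, gave 17 and 16 endothelial higher calls on days 1 and 20. It gave 2 mural lower calls on day 1, and mural medians of 0.89 and 0.91. Myh11 and Tagln, not listed for the day 6 synapse pair, can enter that fit. Its mural calls and medians are therefore not over the same genes as in the main fit.

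For the mural members on day 6 against the homogenates, limma-voom gave 1 lower call and a median of 0.30, 8 groups of arm and set gave 4 and 0.23, and the day 6 libraries alone gave 4 and 0.27; leaving out 1 homogenate gave 1 to 2 lower calls. For day 6 against days 1 and 20, RLE scaling, DESeq2 and limma-voom each gave 3 endothelial higher calls and 8 groups gave 2, and the mural medians were -0.72 (limma-voom) and -0.75 (8 groups, with 4 lower calls). For the synapse arms across days, the endothelial median was 0.23 with limma-voom, 0.36 without day 6 and -0.083 without day 1, with 1 and 7 genes called in the last 2. In the homogenate arms, DESeq2 called 13 genes, and leaving out 1 homogenate called 0 to 3. The arms share replicate numbers, and the column headers give same-numbered homogenates a common tag whose meaning is not given. The deviations of same-numbered libraries correlated at 0.004, 0.25 and 0.18. C replicates 2 and 3 correlated best with the same-numbered L replicates, and C replicate 1 with L replicate 3 (0.11). These values do not settle whether the numbers pair the samples. The main fit left them unpaired, and a fit that pairs them is given beside it. A fit with the replicate block called 1 gene and no member; Acta2 and Anpep, lower in L in each of the 3 same-numbered pairs, had edgeR adjusted p-values of 0.279 and 0.398 in it.

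For the interaction on day 6, leaving out 1 homogenate gave 2 to 5 endothelial higher calls, 1 to 2 mural lower calls and 1372 to 2679 genes in all. A floor of 5 CPM gave 2 mural members past 1.5-fold higher in L on day 1 and 1 lower on day 6. A floor of 20 CPM gave 0 on day 1, and 1 endothelial member higher and 2 lower on day 6. Depth limits Esam, Sox17, Sox18 and Kcnj8, all under 5 CPM in most libraries. The cause of these shifts was not tested.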

Other observations

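Markers of tissue next to the vessels were also read in the synapse fraction against the homogenates (edgeR, adjusted p under 0.05). Of 12 choroid plexus and ependyma markers, 7 were called higher on each of days 1, 6 and 20, and 0, 1 and 0 lower, with medians of 1.16, 1.42 and 1.14 on the log2 scale. Of 12 meningeal and fibroblast markers, 7, 9 and 7 were called higher and 0 lower, with medians of 0.90, 1.88 and 1.20. Of 10 blood cell and border macrophage markers tested, 3 were called higher on each day and 0, 1 and 0 lower.

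The 5 liver transcripts Alb, Apoa1, Apoa2, Fgb and Serpina3k summed to 2260.5 CPM in homogenate L replicate 1, and to 167 CPM (C) and 32.7 CPM (L) in the day 6 synapse pair. They stayed at or below 0.472 CPM in the other 9 libraries.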
